A study of Homo sapiens with 8 samples.

Results

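The BCL2 family apoptosis regulators were examined in RNA-seq libraries of control cells and of cells kept with sodium benzoate (SB), a food preservative and drug. The members were taken as a fixed list of 10 genes, BCL2, BCL2L1, MCL1, BAX, BAK1, BBC3, PMAIP1, BCL2L11, BAD and BID, and all 10 have a row among the 14526 genes of the authors' table. The human cells carry the label HepG2, an established line from a liver carcinoma, and both groups were grown in DMEM with serum. The control group has 4 replicates with no SB in the labels, and the SB-treated group has 4 replicates kept at 10 mM for 24 h. The labels name no genetic change, so the groups differ in SB alone, as far as the labels say.

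Proteins of the BCL2 family decide whether the outer mitochondrial membrane is opened in apoptosis. BAX and BAK1 are the effectors that form the pores, through which cytochrome c leaves to start the caspase cascade. BCL2, BCL2L1 and MCL1 hold the effectors in check, and the BH3-only proteins relieve that restraint or activate the effectors directly. They are named after the BH3 helix, the short segment by which the proteins of the family bind each other. Many of them are also controlled after transcription, by phosphorylation, cleavage or rapid degradation, which RNA levels do not show.

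The BH3 core is the sequence that places these 10 genes in 1 family, and its coding DNA is therefore shown for each. The search was for the codons of a leucine, any 3 residues, a glycine, alanine or serine, an aspartate, then D, E, G, K or S, then F, V, L, I or M. The pattern was written to fit the known BH3 cores of these proteins, so finding it is no test. Each of the 10 coding frames held it exactly 1 time, and 4.34% of 19580 canonical coding frames of GENCODE release 44 held at least 1 match. Each line gives 30 bases of hg38 coding sequence from the canonical transcript, 5′ to 3′ on the strand of the gene, with the codons from the leucine to the aspartate in capitals.
BCL2: accCTCCGCCAGGCCGGCGACgacttctcc
BCL2L1: gcgCTGAGGGAGGCAGGCGACgagtttgaa
MCL1: accTTACGACGGGTTGGGGATggcgtgcag
BAX: tgtCTCAAGCGCATCGGGGACgaactggac
BAK1: cagCTCGCCATCATCGGGGACgacatcaac
BBC3: cagCTGCGGCGGATGGCGGACgacctcaac
PMAIP1: caaCTCAGGAGATTTGGAGACaaactgaac
BCL2L11: gagTTGCGGCGTATTGGAGACgagtttaac
BAD: gagCTCCGGAGGATGAGTGACgagtttgtg
BID: cacCTCGCCCAGGTCGGGGACagcatggac

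Among the restraining members, the core of BCL2 lies in exon 2 of 3 at chr18:63318352-63318381 on the minus strand, that of BCL2L1 in exon 2 of 3 at chr20:31721925-31721954 on the minus strand, and that of MCL1 in exon 1 of 3 at chr1:150578868-150578897 on the minus strand. For the effectors it lies in exon 3 of 6 of BAX at chr19:48955784-48955813 on the plus strand and in exon 4 of 6 of BAK1 at chr6:33575390-33575419 on the minus strand. The core of BBC3 lies in exon 3 of 4 (chr19:47226582-47226611, minus strand) and that of PMAIP1, the shortest frame of the 10 with 54 codons, in exon 2 of 2 (chr18:59902670-59902699, plus strand). Those of BCL2L11 (exon 3 of 4, chr2:111150100-111150129, plus strand), BAD (exon 3 of 4, chr11:64271625-64271654, minus strand) and BID (exon 4 of 6, chr22:17739418-17739447, minus strand) complete the BH3-only group. A gene-level read count does not separate splice forms that keep or lose this segment.

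Whole reads recovered from the RPKM steps came to between 37010896 and 44903216 per library on the listed genes. Of 20 hepatocyte markers, 18 have no row in the table used here, among them ALB, AFP, APOA1, TTR and SERPINA1, and TF, which has one, was at 0.192 ± 0.0188 RPKM in control and 0.379 ± 0.0748 RPKM in SB-treated libraries (SD, n = 4). These values go against a hepatocyte-like line, and the cells are called here by their label only. Of 5 blood cell markers only CD68 has a row (1.17 to 1.40 RPKM in control, 1.36 to 2.05 in SB-treated), and of 7 fibroblast and endothelial markers COL1A1 and LUM do, with a sum between 3.97 and 5.71 RPKM in control and between 4.66 and 4.75 in SB-treated libraries. Control replicate 1 stood apart from the other controls. Its gap to the nearest other control, as a share of the range of the 4 controls, passed Dixon's 95% critical value for 14.6% of the genes, against between 0.317% and 0.620% for the other controls, and each member is therefore given with and without it. The replicate was singled out from these same values. P-values and counts of calls without it are therefore descriptions, and the p-values can be too small.

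RPKM, which scales reads to gene length and library size, allows the members to be set beside each other. PMAIP1 and MCL1 were the most abundant, with 91.1 ± 21.2 RPKM and 62.0 ± 3.67 RPKM (SD, n = 4) in control, at the 95.5 and 92.5 percentile of all listed genes. Without control replicate 1 their control levels were 80.6 ± 3.33 and 60.2 ± 1.02 RPKM (SD, n = 3). BAK1 (29.8 ± 4.44 RPKM) and BAX (29.2 ± 4.70 RPKM) followed with overlapping ranges, then BAD (17.0 ± 2.32 RPKM). BCL2L1 (10.5 ± 0.761 RPKM) and BBC3 (10.4 ± 1.13 RPKM) also overlapped. The lowest levels were those of BID (6.91 ± 0.239 RPKM), BCL2L11 (5.41 ± 0.165 RPKM) and BCL2 (1.79 ± 0.181 RPKM), the last at the 21.5 percentile. All other neighbours in this order had ranges apart. In SB-treated cells the order of the means stayed the same except that BAX and BAK1, and BBC3 and BCL2L1, changed places. The ranges of BAX and BAK1 overlapped there too, at 24.6 and 24.0 RPKM, while those of BBC3 and BCL2L1 lay apart. BAD and BBC3 overlapped at 14.8 and 14.5 RPKM. MCL1 made up 83.5% ± 1.54 of the summed anti-apoptotic RPKM in control and 83.6% ± 0.567 in SB-treated cells (SD, n = 4).

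**Figure D1:**
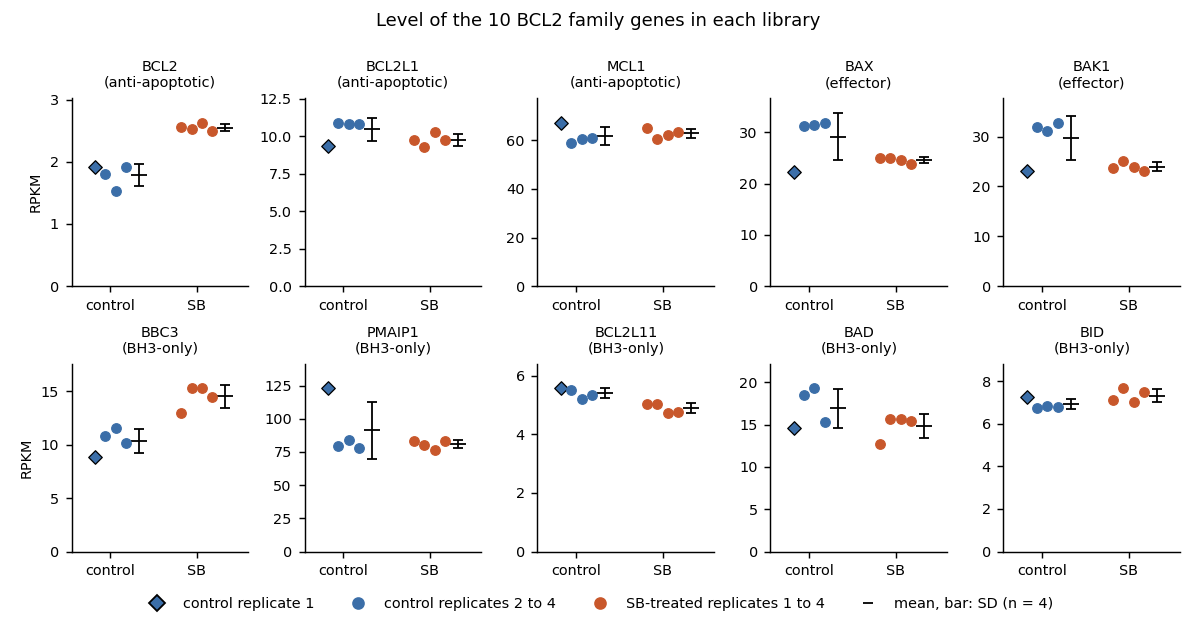
RPKM (vertical axis, from 0, on a separate scale for each gene) of the 10 members in the 4 control and 4 SB-treated libraries, with the mean and SD of each group beside the points. BCL2 and BBC3 are higher and BCL2L11 is lower in all 4 SB-treated replicates, and control replicate 1, the diamond, lies with the SB-treated libraries for BAX and BAK1 and far above all others for PMAIP1.

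The comparison of SB-treated with control cells asks how the members changed with SB. BCL2 and BBC3 rose, and BAK1 and BCL2L11 fell, while the test was not passed by the other 6. By limma, run on log2(RPKM + 1) and adjusted by the Benjamini-Hochberg method over 14526 genes, 33.0% of all genes were higher and 32.6% were lower with an adjusted p-value below 0.05, and 4 called members of 10 stand beside 65.6% of all genes called in either direction. Of the calls over all genes 50.2% were higher, and 65.1% were without the TMM factors, by which the authors scaled the libraries (trimmed mean of M-values). The groups did not overlap for 3 of the 10 members, higher for BCL2 and BBC3 and lower for BCL2L11, against 31.0% of all genes higher, 30.5% lower and 61.5% in all. The median log2 fold change of the 10 was -0.10, beside 0.0045 over all genes. Without control replicate 1, 3 members were higher and 5 lower, where 37.6% and 37.9% of all genes were, and the groups did not overlap for 7, beside 36.7% of all genes higher and 37.1% lower without overlap. Recovered reads per member and library were between 362 for BCL2 in control replicate 3 and 12081 for MCL1 in SB-treated replicate 4. RNA from whole cultures cannot tell less RNA per cell from fewer cells that hold it.

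**Figure D2:**
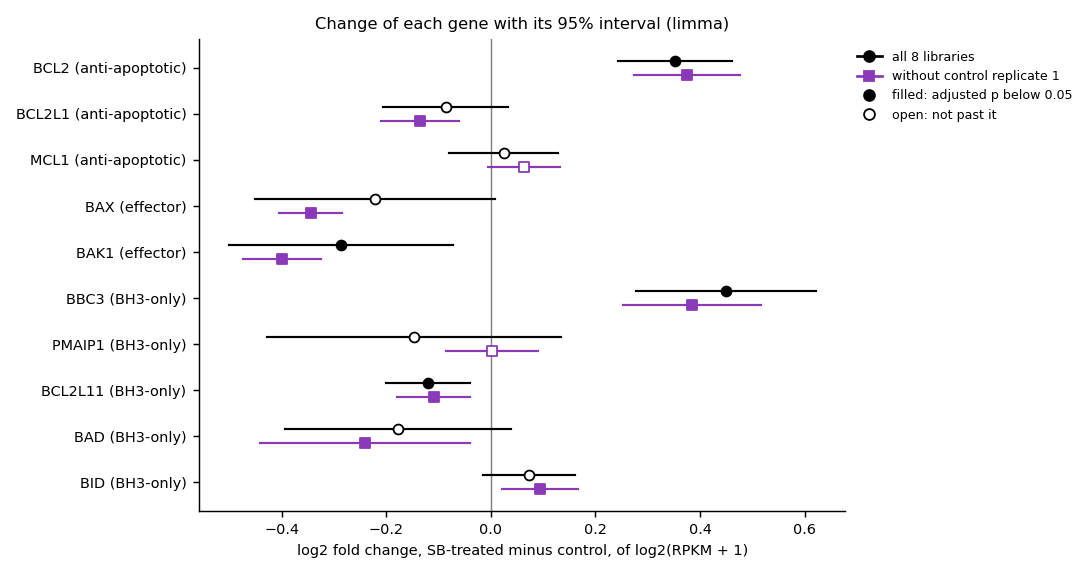
Log2 fold change of log2(RPKM + 1), SB-treated minus control (horizontal axis), with 95% intervals from limma for each member, with all 8 libraries (circles) and without control replicate 1 (squares). Filled symbols have an adjusted p-value below 0.05: 4 members with all libraries and 8 without control replicate 1, with BAX and BAK1 below -0.3 in the second fit.

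Of the anti-apoptotic genes, BCL2, the founding member of the family, rose from the lowest level of the 10. Its 4 control replicates had 1.92, 1.80, 1.53 and 1.91 RPKM, and its SB-treated replicates had 2.56, 2.53, 2.63 and 2.49 RPKM. Every SB-treated value lay above every control value, and replicates of the treated group differed little. BCL2 changed by a log2 fold of 0.35 with a standard error of 0.0486 (limma adjusted p = 0.000158). The two-sided exact permutation test gave p = 0.0286, which is the lowest it can give with these group sizes. With genes ordered from the largest rise down, BCL2 was at rank 1716. Without control replicate 1 the change was 0.37 (adjusted p = 5.11e-05). Its mean RPKM was 1.43 times the control mean, and its mean of recovered reads, not scaled for library size, went from 472 to 706. The pseudocount of 1 lowers the change of a gene at this level, and it was 0.50 with a pseudocount of 0.1 and 0.51 by limma-voom on the recovered reads. The lowest value, 0.28, came after each library was corrected for GC content and length (limma adjusted p = 8.95e-05).

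BCL2L1, which encodes the inhibitor known as Bcl-xL and a shorter form of opposite action, had 9.32, 10.9, 10.8 and 10.8 RPKM in control and 9.73, 9.31, 10.3 and 9.74 RPKM in SB-treated replicates. Control replicate 1 was the low value among the controls and lay within the SB-treated range. Its change of -0.09 on the log2 scale (95% interval -0.21 to 0.03) was not past the threshold (limma adjusted p = 0.178). When the TMM factors were left off, the value was 0.0095, with a median over all genes of 0.08. Without control replicate 1 it was -0.14 (adjusted p = 0.00446), with groups that did not overlap. An antisense gene, ABALON, shares 1735 exon bases with BCL2L1 and was at 0.648 RPKM in control.

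MCL1, a short-lived inhibitor that is replaced continually, had 67.3, 59.0, 60.6 and 60.9 RPKM in control and 65.2, 60.7, 62.4 and 63.6 RPKM in SB-treated replicates. The groups overlapped, and control replicate 1 was again the extreme value, here the highest. The log2 fold change of 0.02 had a 95% interval from -0.08 to 0.13 (limma adjusted p = 0.665), and without control replicate 1 it was 0.06 (interval -0.0046 to 0.13, adjusted p = 0.081). Without TMM factors MCL1 was past the threshold as higher, at 0.13 (adjusted p = 0.0265), with the median of all genes at 0.08. ADAMTSL4-AS1 shares 328 exon bases with MCL1 on the same strand and has no row among the listed genes.

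The effectors were close to each other in level and in how they behaved across the libraries. BAX had 22.2, 31.2, 31.5 and 31.9 RPKM in control and 25.1, 25.0, 24.6 and 23.9 RPKM in SB-treated replicates. BAK1 had 23.2, 31.9, 31.2 and 32.8 RPKM in control and 23.8, 25.2, 23.9 and 23.1 RPKM in SB-treated replicates. For both genes, control replicates 2 to 4 lay above all SB-treated libraries, and control replicate 1 lay below or within them. BAX was not called with all libraries (log2 fold change -0.22, interval -0.45 to 0.0073, limma adjusted p = 0.0806; exact permutation p = 0.143), and BAK1 was (-0.29, interval -0.50 to -0.07, adjusted p = 0.0238; exact permutation p = 0.114). Without control replicate 1 the log2 fold change was -0.34 for BAX (standard error 0.0267, adjusted p = 3.01e-06) and -0.40 for BAK1 (standard error 0.033, adjusted p = 4.54e-06), from 31.5 ± 0.353 and 32.0 ± 0.789 RPKM (SD, n = 3). Leaving out a replicate after its values were seen narrows the control spread, so these 2 p-values can be too small.

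The call of BAK1 was lost when any of control replicates 2 to 4 or SB-treated replicates 1, 3 or 4 was left out (adjusted p up to 0.0662) and without TMM factors (-0.19, adjusted p = 0.123). After each library was corrected for GC content and length, with all 8 kept, the log2 fold change was -0.26 for BAK1 (adjusted p = 0.0039) and -0.11 for BAX (adjusted p = 0.189). Without TMM factors that of BAX was -0.12 (adjusted p = 0.334). The ratio of BAX to BAK1 within a library ranged from 0.956 to 1.05 over all 8 libraries, a narrower span than that of either gene.

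The BH3-only genes did not move together. BBC3, which encodes PUMA, rose in all 4 SB-treated replicates. Its control replicates had 8.89, 10.8, 11.6 and 10.2 RPKM, and its SB-treated replicates had 13.0, 15.3, 15.3 and 14.5 RPKM, with no overlap. BBC3 changed by a log2 fold of 0.45 with a standard error of 0.0766 (limma adjusted p = 0.000606; exact permutation test p = 0.0286), at rank 996 in the same order, and the mean of recovered reads went from 857 to 1271. Control replicate 1 was the lowest control, and without it the change was 0.38 (adjusted p = 0.000252). After the correction for GC content and length the change was 0.34 (limma adjusted p = 3.56e-06). The order of BBC3 and BCL2 depended on the scale. The change of BBC3 was the larger with a pseudocount of 1, while with 0.1 it was 0.48 against 0.50 for BCL2, and by limma-voom 0.49 against 0.51.

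PMAIP1, which encodes NOXA, a partner of MCL1, was the most abundant member, and its value depended on 1 library. It had 123, 79.8, 84.3 and 77.8 RPKM in control and 83.2, 80, 76.8 and 83.1 RPKM in SB-treated replicates. Outside control replicate 1 the groups overlapped. Its log2 fold change was -0.15 with all libraries (interval -0.43 to 0.13, limma adjusted p = 0.324) and 0.0030 without control replicate 1 (interval -0.09 to 0.09, adjusted p = 0.949), and it was also positive, at 0.015, after the correction for GC content and length. Without TMM factors it was -0.04 (adjusted p = 0.772).

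BCL2L11, which encodes BIM, fell by a small amount in all 4 SB-treated replicates. It had 5.57, 5.52, 5.21 and 5.34 RPKM in control and 5.02, 5.04, 4.74 and 4.77 RPKM in SB-treated replicates. The groups lay apart by less than the range within each, with a change of -0.12 on the log2 scale and a standard error of 0.0359 (limma adjusted p = 0.0139; exact permutation test p = 0.0286). Without control replicate 1 it was -0.11 (adjusted p = 0.00984). Without TMM factors it was -0.033 and no longer past the threshold (adjusted p = 0.425), and after the correction for GC content and length it was -0.19 (adjusted p = 0.000205). The antisense gene MIR4435-2HG shares 727 exon bases with it at a mean of 5.06 RPKM in control and 5.71 RPKM in SB-treated cells (log2 fold change 0.15, adjusted p = 0.0616), and the strand setting of the counting is not given in the sources used here.

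BAD, which is held inactive by phosphorylation and 14-3-3 proteins, had 14.6, 18.5, 19.3 and 15.3 RPKM in control and 12.7, 15.6, 15.7 and 15.4 RPKM in SB-treated replicates. The groups overlapped, and the spread among the controls was wide. BAD had a log2 fold change of -0.18 (interval -0.39 to 0.04, limma adjusted p = 0.129) and -0.24 without control replicate 1 (adjusted p = 0.0326). It was -0.08 without TMM factors (adjusted p = 0.499) and -0.10 after the correction for GC content and length (adjusted p = 0.109). GPR137 on the opposite strand shares 404 exon bases with BAD and was at 8.14 RPKM in control and 7.73 RPKM in SB-treated cells.

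BID, which is activated by caspase-8 cleavage, had 7.26, 6.73, 6.85 and 6.80 RPKM in control and 7.12, 7.67, 7.04 and 7.47 RPKM in SB-treated replicates. Control replicate 1 was the highest control and the only control within the SB-treated range. BID had a log2 fold change of 0.07 (interval -0.01 to 0.16, limma adjusted p = 0.124), and it was 0.09 without control replicate 1 (adjusted p = 0.0227) and 0.13 after the correction for GC content and length (adjusted p = 0.00479). Without TMM factors it was 0.17 (adjusted p = 0.00333).

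Control replicate 1 deviated from the other controls in opposite directions among the members. It was below the mean of the other controls for BCL2L1, BAX, BAK1, BBC3 and BAD, whose canonical transcripts have a GC content between 56.6% and 69.7%. It was above it for BCL2, MCL1, PMAIP1, BCL2L11 and BID, whose GC content is between 36.7% and 48.0%. The ratio was lowest for BAX, at 0.703, and highest for PMAIP1, at 1.52. Across 14086 genes with a GC value, the log2 deviation of control replicate 1 had a Pearson correlation of -0.714 with GC content. The difference between SB-treated and all control libraries had one of 0.126, and that between SB-treated cells and control replicates 2 to 4 had one of 0.00853. These are genes of the same libraries, given as a description. The part of GC content in the results of each member was not tested.

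**Figure D3:**
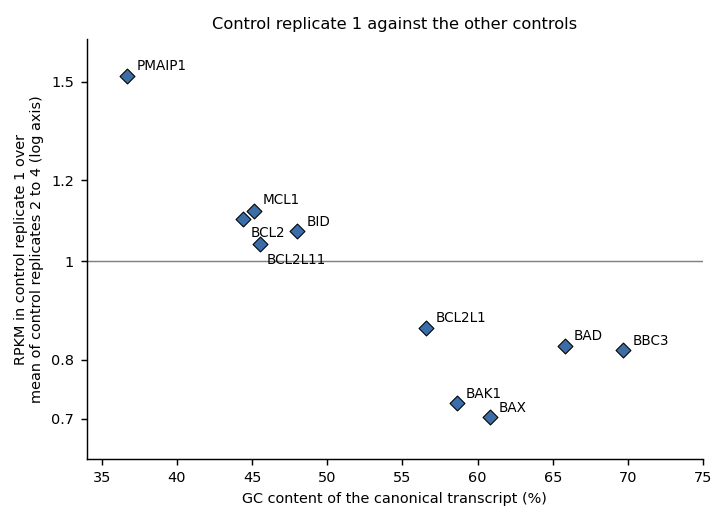
RPKM of each member in control replicate 1 divided by the mean of control replicates 2 to 4 (vertical log axis; the line marks a ratio of 1) against the GC content of the canonical transcript (horizontal axis, percent). The 5 members above 50% GC lie below the line and the 5 others above it, from 0.703 for BAX to 1.52 for PMAIP1.

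Ratios of members within a library are independent of its scaling, and they are given as descriptions. They were not corrected for GC content, which is 60.8% for BAX and 44.4% for BCL2. BAX over BCL2 was 11.6, 17.4, 20.6 and 16.7 in control and 9.80, 9.87, 9.32 and 9.57 in SB-treated replicates, which did not overlap and had means of 16.5 ± 3.72 and 9.64 ± 0.248 (SD, n = 4). The summed RPKM of BCL2, BCL2L1 and MCL1 over that of BAX and BAK1 was 1.73, 1.14, 1.16 and 1.14 in control and 1.58, 1.45, 1.55 and 1.61 in SB-treated replicates. Here the SB-treated values were above control replicates 2 to 4 and below control replicate 1. The summed anti-apoptotic over the summed BH3-only RPKM overlapped between the groups, at 0.574 ± 0.0597 and 0.616 ± 0.0242 (SD, n = 4), and so did MCL1 over PMAIP1, at 0.698 ± 0.103 and 0.780 ± 0.0243. The anti-apoptotic sum is set mainly by MCL1. The BH3-only sum is set mainly by PMAIP1, with 69.1% ± 5.39 of it in control and 66.0% ± 2.04 in SB-treated cells. Together these genes took 57.8% ± 6.27 of the summed RPKM of the 10 in control and 58.4% ± 1.43 in SB-treated cells. Without control replicate 1 the control share was 54.6% ± 0.49 (SD, n = 3). All SB-treated shares were above control replicates 2 to 4 and below control replicate 1.

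**Figure D4:**
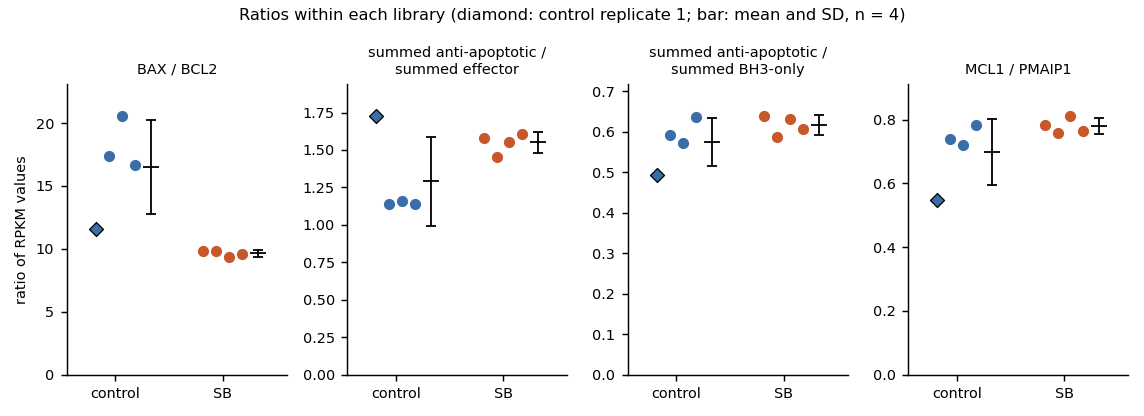
Ratios of RPKM values (vertical axes, from 0) in each control and SB-treated library, with the mean and SD of 4 replicates, control replicate 1 drawn as a diamond. BAX over BCL2 is below 10 in all 4 SB-treated libraries and between 11.6 and 20.6 in control. The other ratios overlap between the groups, that of anti-apoptotic over effector through control replicate 1 alone.

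The other genes of the pathway were read from 7 lists of 71 genes, of which 62 have a row. Of these 62, 20 were higher and 26 lower in SB-treated cells (limma adjusted p-value below 0.05), 74.2% beside 65.6% of all genes. Over all genes 33.0% were higher and 32.6% lower, with a median log2 fold change of 0.0045. The genes named below kept their direction without TMM factors, with median-of-ratios scaling and without control replicate 1, and their groups did not overlap.

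Relatives of the 10 members moved in both directions. Of 8 other BCL2 family genes with a row, 3 were higher, 3 lower and 2 not called, with a median log2 fold change of -0.06. HRK, a BH3-only gene, rose from 4.21 ± 0.297 to 7.16 ± 0.411 RPKM (log2 fold change 0.65, limma adjusted p = 5.51e-06), and BCL2L2, an inhibitor known as BCL-w, rose from 9.71 ± 0.478 to 14.9 ± 0.334 RPKM (0.57, adjusted p = 2.59e-06). Both changes were larger than that of any of the 10. BNIP3L and BNIP3, mitochondrial proteins that also act in mitophagy and are induced by hypoxia, fell with log2 fold changes of -0.34 and -0.24.

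Downstream of the mitochondrial pore, 6 of 11 genes for the apoptosome, the caspases and their nuclease were higher and 3 lower (median 0.14). CYCS, which encodes cytochrome c, fell from 54.3 ± 5.78 to 35.3 ± 0.449 RPKM (log2 fold change -0.60, adjusted p = 3.25e-05). CASP2 rose by 0.38 and CASP6 fell by 0.29 on the log2 scale. Of 7 IAP proteins and their antagonists, 2 were higher and 3 lower (median 0.06), with XIAP, a direct caspase inhibitor, at 0.25, BIRC6 at 0.24 and BIRC2 at -0.18. DIABLO, which is released from mitochondria and relieves XIAP, fell from 24.4 ± 0.395 to 16.7 ± 0.252 RPKM (-0.53, adjusted p = 1.08e-06).

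Mitochondrial partners were mostly lower, 6 of 8 with 1 higher and a median of -0.32, beside 32.6% of all genes lower. AIFM1, a flavoprotein that leaves mitochondria in cell death, had a log2 fold change of -0.47, and BCAP31, an endoplasmic reticulum protein cut by caspases, had -0.41. TMBIM6, a BAX inhibitor of the endoplasmic reticulum, was higher, at 0.15. Of 13 trafficking and phosphorylation partners 8 were lower and 4 higher (median -0.34). YWHAB and YWHAQ, which encode 14-3-3 proteins that bind phosphorylated BAD, had log2 fold changes of -0.51 and -0.51, while AKT2 and AKT1, kinases that phosphorylate BAD, had 0.22 and 0.19.

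Of 9 transcription factors known to act on BH3-only genes, 3 were higher and 2 lower (median -0.03). TP73 was at 0.46 and JUN at 0.44, while MYC was at -0.49 and FOXO1 at -0.26, each with a limma adjusted p of at most 0.000323. Of 6 ubiquitin enzymes that act on MCL1 or BIM, 1 was higher (BTRC, 0.19), 1 lower (USP9X, which removes ubiquitin from MCL1, -0.27) and 4 were not called.

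**Figure D5:**
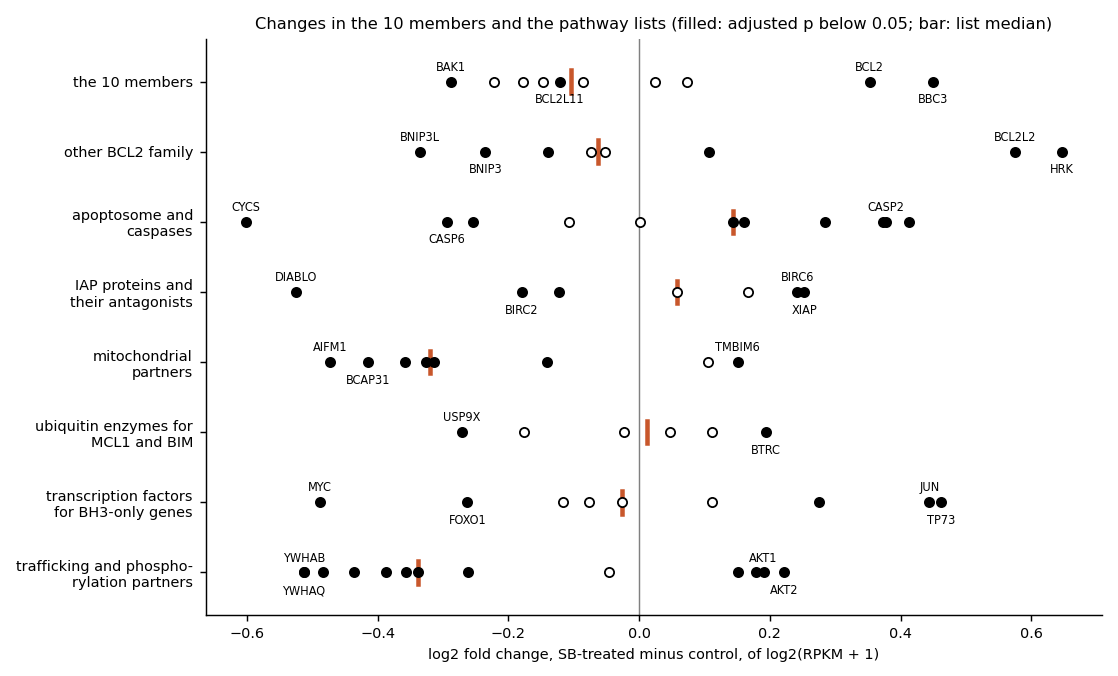
Log2 fold change of log2(RPKM + 1), SB-treated minus control (horizontal axis), for the 10 members and the genes of 7 pathway lists (rows), each point a gene, filled where the limma adjusted p-value is below 0.05, with the list median as a bar. The members and most lists lie on both sides of 0. The medians of the mitochondrial and of the trafficking and phosphorylation partners are at -0.32 and -0.34, beside 0.0045 over all genes.

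By likeness of pattern, genes near to BBC3, the called member with the largest change at a pseudocount of 1 (BCL2 was larger at 0.1 and by limma-voom), were LMNB2, CEP170B, MUM1 and SPATA2L, with Pearson correlations of log2(RPKM + 1) over the 8 libraries between 0.992 and 0.996 among 12544 genes with a mean of at least 1 RPKM. Such values were common, since 27.6% of these genes had a correlation above 0.9 in size with BBC3. The points are the same 8 libraries for every gene and carry the difference between the groups.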

How the data were processed

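Total RNA libraries were made by the authors with a stranded kit and sequenced as 50 bp single reads. Per the labels, the submitters' processing notes name TopHat2 2.1.0, featureCounts 1.5.0, edgeR 3.16.5 and the build hg38. The authors dropped genes unless 2 or more samples passed a CPM of 1, scaled libraries by TMM and deposited RPKM values per library. The authors' own log2 fold change and p-value columns were not used. Their mean log2 CPM served only to recover reads. The RPKM steps gave whole reads for 100% of the genes (tolerance 0.01 reads), 46 of them after multiplying by a common factor.

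Here limma 3.58.1 in R 4.3.3 was fitted to log2(RPKM + 1) of all 8 libraries, with no further filter, block or covariate and Benjamini-Hochberg adjustment over 14526 genes. The threshold was an adjusted p-value of 0.05. Intervals are 95% from limma. Exact permutation tests used scipy 1.17.1. The members, lists and tests were chosen with earlier results of these data known. Named are all members, of each other list the 2 largest rises and 2 largest falls past the threshold without overlap, and the 5 genes most correlated with the called member of largest change. P-values of limma weigh the difference between the groups against the spread between these replicates, moderated over all genes. Those of the permutation test place the difference among all regroupings of the same values. Positions and GC content come from GENCODE release 44 on hg38, with older symbols matched through RefSeq, and 97.0% of the genes had a GC value. The scripts were tested on simulated data. Alternatives were another pseudocount, a filter, other scalings, a GC and length correction, voom, the replicate block and leaving out each library. ChIP-seq was not analysed here. A few items that these rules name are not reported here.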

Additional observations from a re-analysis of the deposited data

Results flagged for a closer look

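Among the 20 groups of 4 values (10 members, 2 groups each, log2(RPKM + 1)), 4 had an extreme replicate whose gap to its nearest neighbour, as a share of the whole range, was above Dixon's 95% critical value. Chance flags about 1 group in 20. In 3 of the 4 the extreme value was the lowest and came from control replicate 1, with a share of 0.94 for BAX, 0.899 for BCL2L1 and 0.857 for BAK1. The fourth was BAD, where SB-treated replicate 1, at 12.7 RPKM, was the lowest with a share of 0.899.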

How the results depend on the processing

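Of 16 alternatives, BCL2 and BBC3 were past the threshold in the same direction in all 16, BCL2L11 in 15 and BAK1 in 9. Without TMM factors 65.1% of all calls were higher, against 50.2% with them, 4 members were higher and 0 lower by limma (also 0 lower at an unadjusted p-value below 0.05, while limma-voom with TMM factors called 2 lower), and the log2 fold change was 0.0095 for BCL2L1, 0.13 for MCL1 (past the threshold), -0.12 for BAX, -0.19 for BAK1, -0.04 for PMAIP1, -0.033 for BCL2L11, -0.08 for BAD and 0.17 for BID. After the GC and length correction it was 0.28 for BCL2, 0.34 for BBC3, 0.015 for PMAIP1, 0.13 for BID, -0.19 for BCL2L11, -0.10 for BAD and -0.11 for BAX. Adding the replicate block cannot change these values, since both groups hold the same replicate numbers. It can change only the p-values, and the limma adjusted p of BID went from 0.00479 to 0.0166.

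The replicate numbers were not taken as pairs. Deviations of same-numbered replicates correlated at 0.38, 0.327, 0.173 and -0.16, and 4 of 8 libraries correlated best with their own number. With the replicate block, the log2 fold change of BAD, -0.18, was past the threshold, 2 members were higher and 3 lower, and no other member's call changed. With the GC and length correction and the block, BAD was not past it (-0.10, adjusted p = 0.0777).

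When each library was left out in turn, the log2 fold change ranged from -0.136 to -0.0652 for BCL2L1, from -0.34 to -0.18 for BAX, from -0.40 to -0.24 for BAK1, from -0.21 to 0.0030 for PMAIP1, from -0.24 to -0.11 for BAD and from 0.0535 to 0.0942 for BID, with 1 to 5 members lower. The number of members lower was 5 without control replicate 1 and 1 when control replicate 2, 3 or 4 or SB-treated replicate 1, 3 or 4 was the one left out, where BAK1 was no longer past the threshold.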
